A study of Rattus norvegicus with 9 samples.

Results

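Isl1, Isl2, Foxp1, Mnx1 and Lhx3 are transcription factors that define spinal motor neurons and their subtypes, and their RNA was followed here in ventral spinal cord from embryonic rats. The members were all probe sets of the array that the platform annotation assigns to exactly 1 gene symbol equal to one of these 5 names. This gave 9 of 31099 probe sets (2 for Isl1, 2 for Isl2 and 5 for Foxp1), for 3 of the 14217 genes that the array names. No probe set carried the symbol or the Entrez identifier of Mnx1 or Lhx3, so these genes are not analysed here.

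Spinal motor neurons arise from ventral progenitors and settle in columns that match their targets. In mouse and chick, Isl1 and Lhx3 form a complex with the cofactor Ldb1 that turns on motor neuron genes, and Mnx1 keeps interneuron programmes off in the new motor neuron. Isl2 acts later and in part alongside Isl1, while Foxp1 works with Hox proteins to set up the lateral motor column that innervates limb muscle. Isl1 is also made in sensory ganglion neurons and in a class of dorsal interneurons, and Foxp1 in several ventral interneuron classes, so neither is specific to motor neurons.

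The series held 9 Affymetrix arrays of embryonic day 14 tissue, each with total RNA of a pool of 5 embryos. There were 4 mutant pools from rats with a human SOD1 transgene carrying G93R, while 4 wild-type pools came from rats with the unmutated human SOD1 transgene. One further pool, the negative control, had no replicate; its title reads SDneg, while its description also calls its embryos positive. No strain is spelled out in the labels of any pool. Superoxide dismutase 1, the product of SOD1, is an enzyme whose mutant forms cause an inherited motor neuron disease. Neither the promoter of the transgenes nor the sex of the embryos is given in the labels. Mutation, rat line and insertion site went together in these pools, and the titles carry a different name for each transgenic group, so their parts in any difference cannot be told apart. Replicates 2, 3 and 4 of both transgenic groups also carry the tag le2 in their titles, with no meaning given; both replicates numbered 1 and the negative control lack it.

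Intensities are given on the linear scale of the deposited values, and an intensity of one probe set cannot be set against that of another. Differences are log2 differences from limma after adding a pseudocount of 8.25, which understates the change of dim probe sets. A probe set was tested where its mean log2 value over the arrays lay above the 40th percentile, equal to an intensity of about 17.3, and 18625 probe sets passed. Of the 9 member probe sets 8 were tested, and the second Isl1 probe set was not. The array medians lay between 31.0 and 33.9. The 3'/5' ratio of beta-actin, which moves with RNA integrity, was 6.98 to 7.98 in mutant pools, 8.19 to 19.2 in wild-type pools, with 6.66 in the negative control, with the highest value in wild-type replicate 2.

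Isl1 gave the largest difference between mutant and wild-type pools among the members, and it did not pass the test after adjustment. On probe set 1369681_at, Isl1 had intensities of 605, 354, 452 and 461 in mutant replicates 1 to 4, 298, 323, 341 and 386 in wild-type replicates 1 to 4, and 393 in the negative control. Of the 4 mutant pools, 3 lay above every wild-type pool, while mutant replicate 2 lay below wild-type replicate 4, so the groups overlapped. Isl1 averaged 468 ± 104 in mutant pools and 337 ± 36.9 in wild-type pools (SD, n = 4 each). Its log2 difference was 0.45 (95% interval 0.14 to 0.75), with an unadjusted limma p of 0.00723 and an adjusted p of 0.929. That unadjusted p ranked 133 among 18625 tested probe sets, about the rank that so many tests give it with no differences at all.

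The negative control lay between the transgenic groups for Isl1, below 3 of 4 mutant pools and above all 4 wild-type pools. The Isl1 log2 difference from the negative control was 0.22 (95% interval -0.26 to 0.70) in mutant pools and -0.22 (95% interval -0.70 to 0.26) in wild-type pools. Neither passed limma's test, with adjusted p-values of 1.00 and 0.980. The mean of both transgenic groups differed from the negative control by -0.0011 on the log2 scale (95% interval -0.46 to 0.45).

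The Isl1 difference depended on which arrays entered the comparison. Among the le2-tagged arrays alone, replicates 2 to 4 of each group, it was 0.26 (95% interval -0.03 to 0.55), with an unadjusted limma p of 0.0780. Between the 2 arrays without the tag, mutant replicate 1 and wild-type replicate 1, which were the highest and the lowest of all arrays for Isl1, it was 1.00, with no test possible. The same 2 arrays differed by 0.91 for Isl2 1396459_at, 0.63 for Foxp1 1373804_at and 0.51 for Foxp1 1390885_at, each far above the value over all pools. A wide gap was thus not seen for Isl1 alone, but other probe sets of the same genes did not share it. They gave 0.26 for Isl2 1369530_at, 0.21 for Foxp1 1379651_at, 0.20 for Foxp1 1380544_at and -0.05 for Foxp1 1394691_at. Without mutant replicate 1 the Isl1 difference was 0.31. Adding the log2 actin ratio of each array to the model gave 0.36, with an unadjusted limma p of 0.0585. The sign was positive in every one of the 23 alternatives run, and the adjusted p lay between 0.459 and 1.00 in the 22 of them that had a test.

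**Figure D1:**
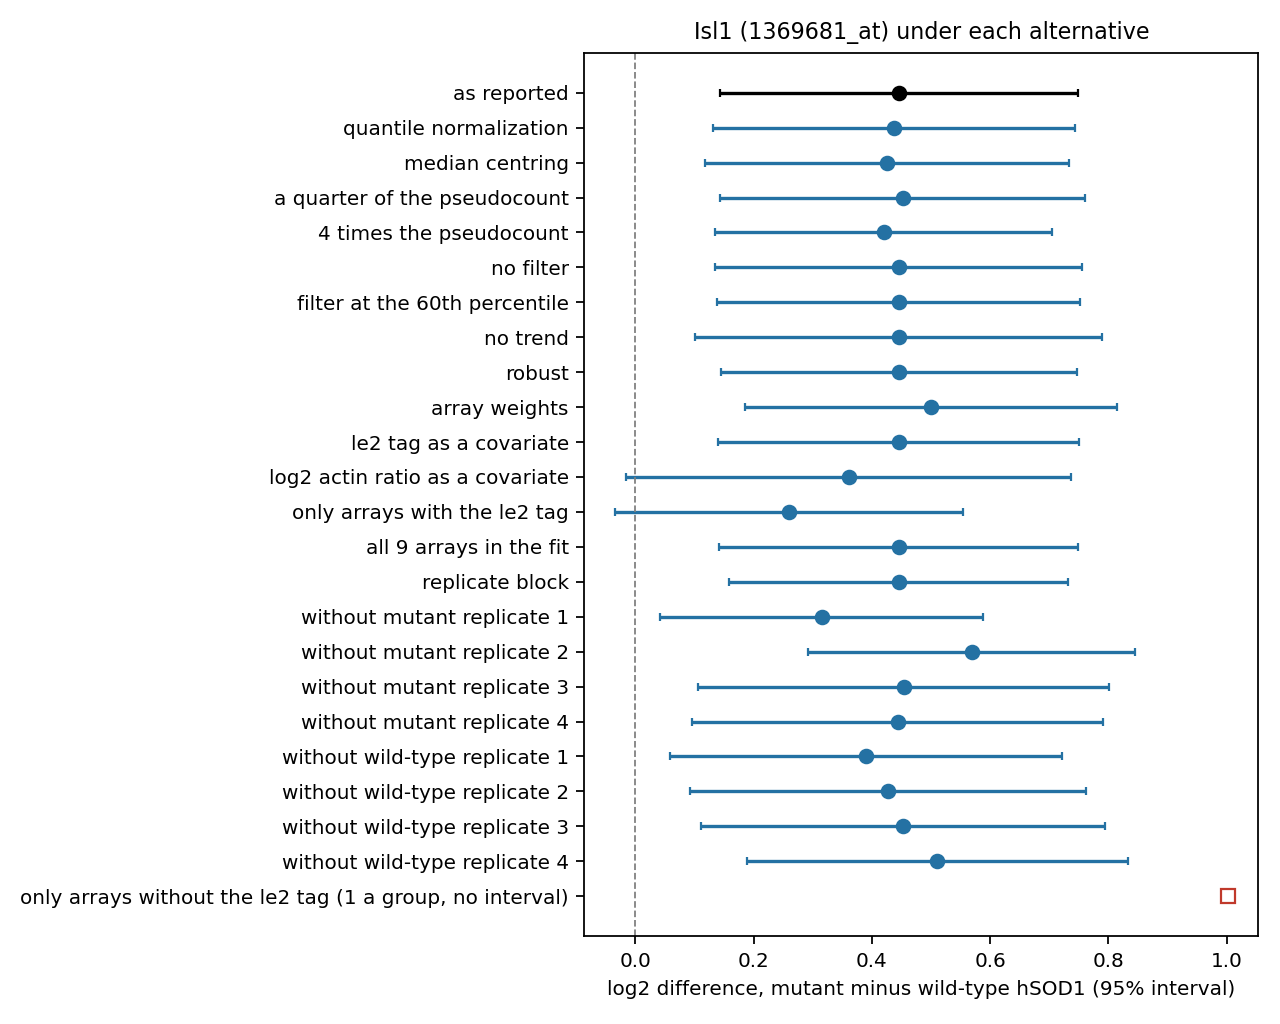
Log2 difference of Isl1 between mutant and wild-type pools under each setting, with 95% intervals of limma's estimate where a test was possible. All estimates lie above 0, from 0.26 with the tagged arrays alone to 1.00 between the 2 untagged arrays, and the interval includes 0 when the tagged arrays are used alone and when the actin ratio is in the model.

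The second Isl1 probe set, 1396895_at, read near background. It gave 4.02, 7.35, 9.54 and 1.24 in mutant pools, 2.20, 0.829, 8.01 and 3.82 in wild-type pools, against 1.39 in the negative control. These values lie below the filter and overlapped between the groups, so they were not tested and give no check on the other Isl1 probe set.

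Isl2, the second islet factor, did not differ detectably between the groups on either of its probe sets. On 1396459_at, Isl2 had intensities of 67.8, 40.01, 44.7 and 29.3 in mutant pools, 32.1, 69.6, 40.4 and 43.0 in wild-type pools, with 42.9 in the negative control. Mutant replicate 1 and wild-type replicate 2 were high, mutant replicate 4 was lowest, and the groups overlapped almost fully. The log2 difference of this Isl2 probe set was -0.03 (95% interval -0.52 to 0.47; limma adjusted p = 0.991). Its spread within groups, 0.41 on the log2 scale, was above that of 95.4% of tested probe sets, so a difference within that interval was not detectable at this precision.

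On the other Isl2 probe set, 1369530_at, intensities were 38.4, 19.6, 39.9 and 25.1 in mutant pools, 30.6, 29.4, 32.2 and 33.2 in wild-type pools, against 26.7 in the negative control. The wild-type pools lay close together, with a mean of 31.4 ± 1.68, while the mutant pools spread on both sides of them, with a mean of 30.7 ± 9.97 (SD, n = 4 each). The log2 difference was -0.06 (95% interval -0.46 to 0.34; limma adjusted p = 0.976). The Isl2 probe sets ranked the arrays differently, with Pearson's r of 0.40 over 9 arrays.

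Foxp1, the Hox cofactor of the lateral motor column, was read by 5 probe sets, and none of them differed between mutant and wild-type pools beyond the spread between replicates. The brightest, 1390885_at, had intensities of 1138, 853, 965 and 691 in mutant pools, 799, 744, 813 and 843 in wild-type pools, with 839 in the negative control. Of the mutant pools, 3 exceeded every wild-type pool, and mutant replicate 4 was the lowest of all 9 arrays. Its means were 912 ± 188 in mutant pools and 799.7 ± 41.3 in wild-type pools (SD, n = 4 each). The log2 difference was 0.17 (95% interval -0.10 to 0.43, limma adjusted p = 0.929), and 0.05 without mutant replicate 1. Without mutant replicate 4, the lowest array, it was 0.29 (limma, unadjusted p of 0.0147, adjusted p of 0.933). This was the 1 of 22 tested alternatives with an unadjusted p under 0.05 for this probe set.

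Foxp1 probe set 1380544_at had intensities of 565, 585, 453 and 355 in mutant pools, 489.8, 581, 539 and 421 in wild-type pools, against 457 in the negative control. Its order differed from that of the brightest Foxp1 probe set, with mutant replicate 2 highest and mutant replicate 4 again lowest, and the log2 difference was -0.07 (95% interval -0.39 to 0.25). Foxp1 probe set 1373804_at had intensities of 403, 337, 318 and 318 in mutant pools, 258, 389, 278 and 339.6 in wild-type pools, with 270.0 in the negative control. Here mutant replicate 1 was highest and wild-type replicate 1 lowest, and the log2 difference was 0.13 (95% interval -0.15 to 0.41).

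Both dimmer Foxp1 probe sets were lower in every transgenic pool than in the negative control. Foxp1 probe set 1379651_at gave 64.1, 63.4, 57.2 and 43.6 in mutant pools, 54.5, 55.3, 54.3 and 51.0 in wild-type pools, against 66.5 in the negative control. Foxp1 probe set 1394691_at gave 19.7, 27.0, 21.0 and 30.5 in mutant pools, 20.6, 35.2, 15.0 and 27.8 in wild-type pools, with 37.7 in the negative control. Across all tested probe sets, 19.7% had all 8 transgenic pools on one side of the single negative control, against 2 of 8 among the members. The log2 differences of transgenic pools from the negative control were -0.24 (95% interval -0.68 to 0.21) and -0.51 (95% interval -1.17 to 0.15), and the 3 brighter Foxp1 probe sets gave 0.01, 0.10 and 0.27. None of the 5 passed limma's test, with adjusted p-values of 1.00.

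The 5 Foxp1 probe sets did not rank the arrays alike. Over the 9 arrays, Pearson's r between pairs of them ran between -0.44, for 1390885_at and 1394691_at, and 0.66, for 1380544_at and 1379651_at. The mutant minus wild-type log2 difference of Foxp1 was positive on 4 of its probe sets and negative on 1380544_at, within 0.17 of 0 on each.

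**Figure D2:**
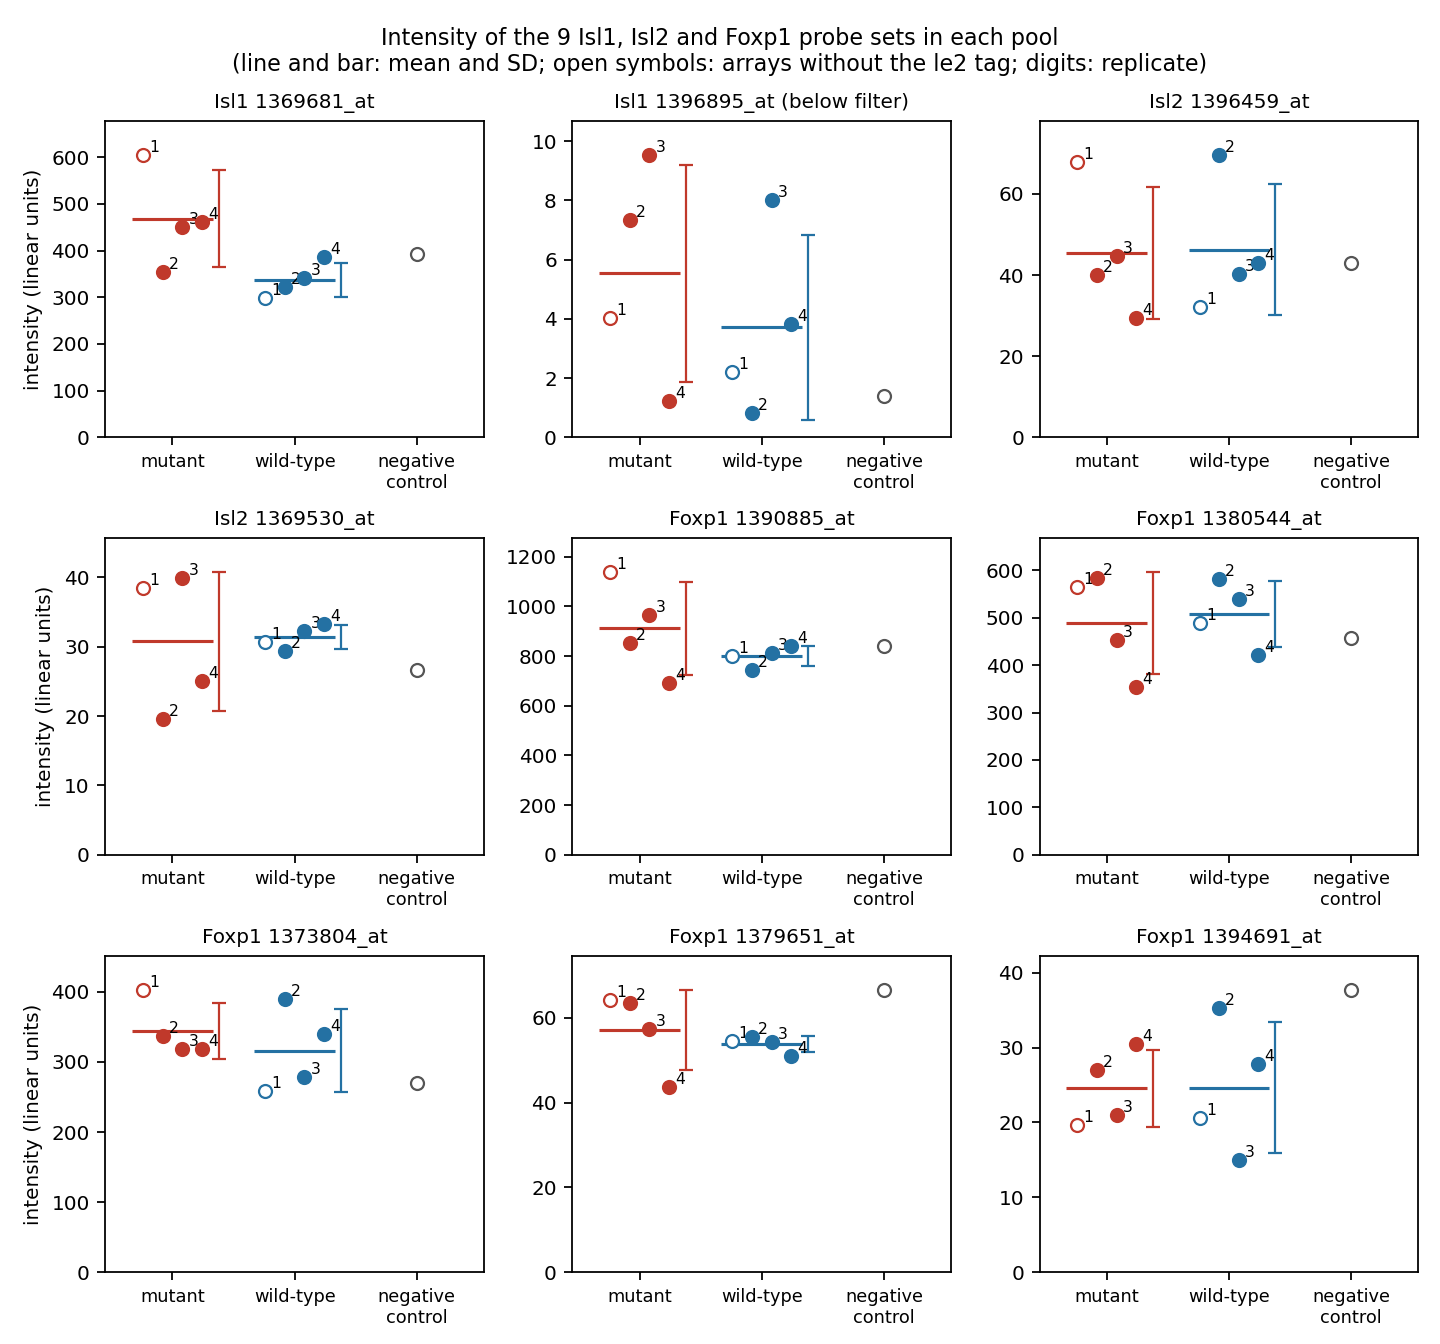
Intensity of the 9 member probe sets (linear axis, arbitrary units) in 4 mutant pools, 4 wild-type pools and the negative control; each point is a pool with its replicate number (open where the le2 tag is lacking), the line is the group mean and the bar its SD. Mutant and wild-type pools overlap in every panel, and mutant replicate 1 is the highest array for Isl1 1369681_at and for Foxp1 1390885_at and 1373804_at.

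Counted over the members, 0 of 8 tested probe sets passed the adjusted threshold of 0.05 between mutant and wild-type pools, where 0.0161% of all tested probe sets did. One of 8, the Isl1 probe set 1369681_at, had an unadjusted limma p under 0.05, against 4.93% of all tested probe sets and 2.75% counted in its direction. Mutant and wild-type pools overlapped on all 8 tested member probe sets, while 2.95% of all tested probe sets showed no overlap. The log2 difference was above 0 for 5 of 8 members, 62.5%, with a median of 0.04, where 53.7% of all tested probe sets lay above 0 with a median of 0.01. Against the negative control, 0 of 8 members passed after adjustment in limma, as did 0 of all 18625 probe sets, and 0 of 8 had an unadjusted p under 0.05 for the mean of both transgenic groups, where 3.12% of all tested probe sets did. The same count was 0 of 8 for mutant pools alone (2.29% of all) and 0 of 8 for wild-type pools alone (4.28% of all). In bulk tissue, fewer cells of a type and less RNA per cell cannot be told apart, which holds for each value given here.

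**Figure D3:**
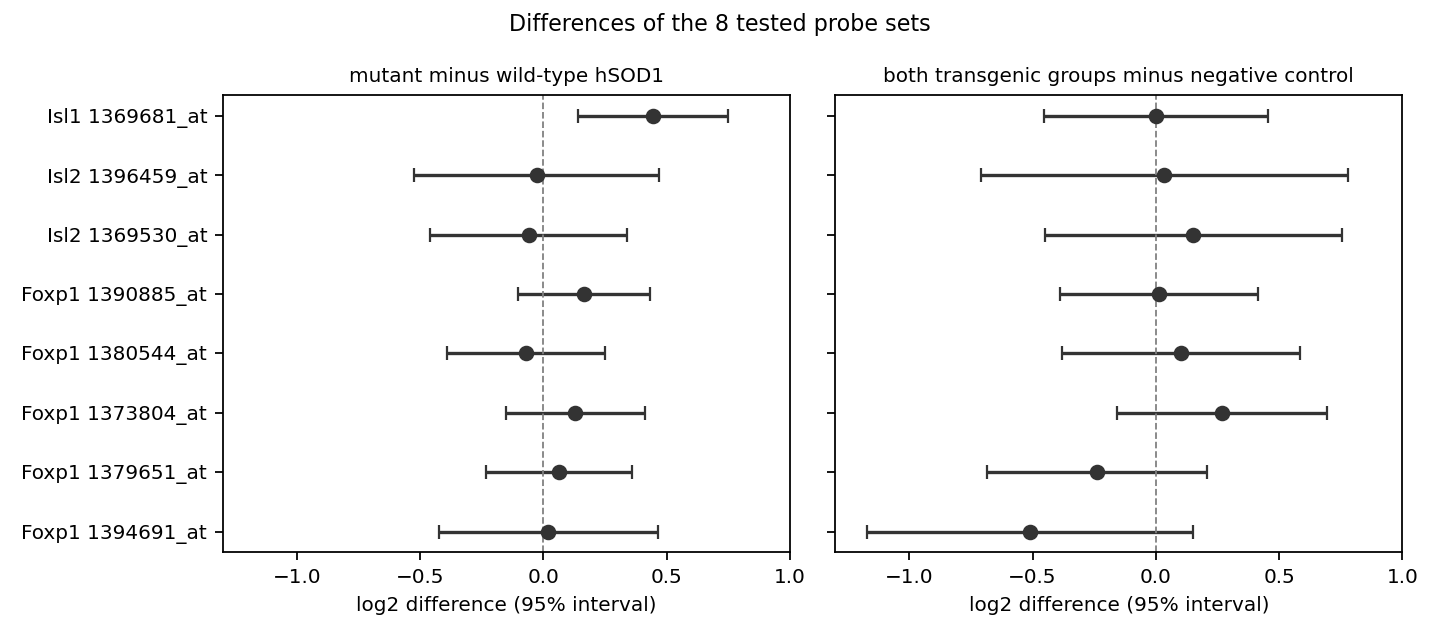
Log2 differences of the 8 tested member probe sets with 95% intervals from limma, for mutant minus wild-type pools (left) and for the mean of both transgenic groups minus the negative control (right). Of all intervals, the one of Isl1 1369681_at between mutant and wild-type pools is the one that does not include 0.

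The SD on the log2 scale was larger in mutant than in wild-type pools for 6 of 8 tested member probe sets, where it was for 38.5% of all tested probe sets. The exceptions were Foxp1 1373804_at and 1394691_at, and for Isl2 1396459_at the SDs were close, at 0.42 in mutant pools and 0.40 in wild-type pools. Mutant replicate 1 was the highest of all 9 arrays for 3 of 8 members, where it was for 9.65% of all tested probe sets. Mutant replicate 4 was the lowest for 4 of 8 members, an Isl2 and 3 Foxp1 probe sets, where it was for 8.78% of all tested probe sets. Wild-type replicate 2 was the highest array for 19.7% and the lowest for 21.2% of all tested probe sets. Among the 8 members it was highest for 1 and lowest for 0. Its part in the share of 38.5% was not tested. The members of one gene share a transcript, so these counts do not stand for 8 independent readings.

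**Figure D4:**
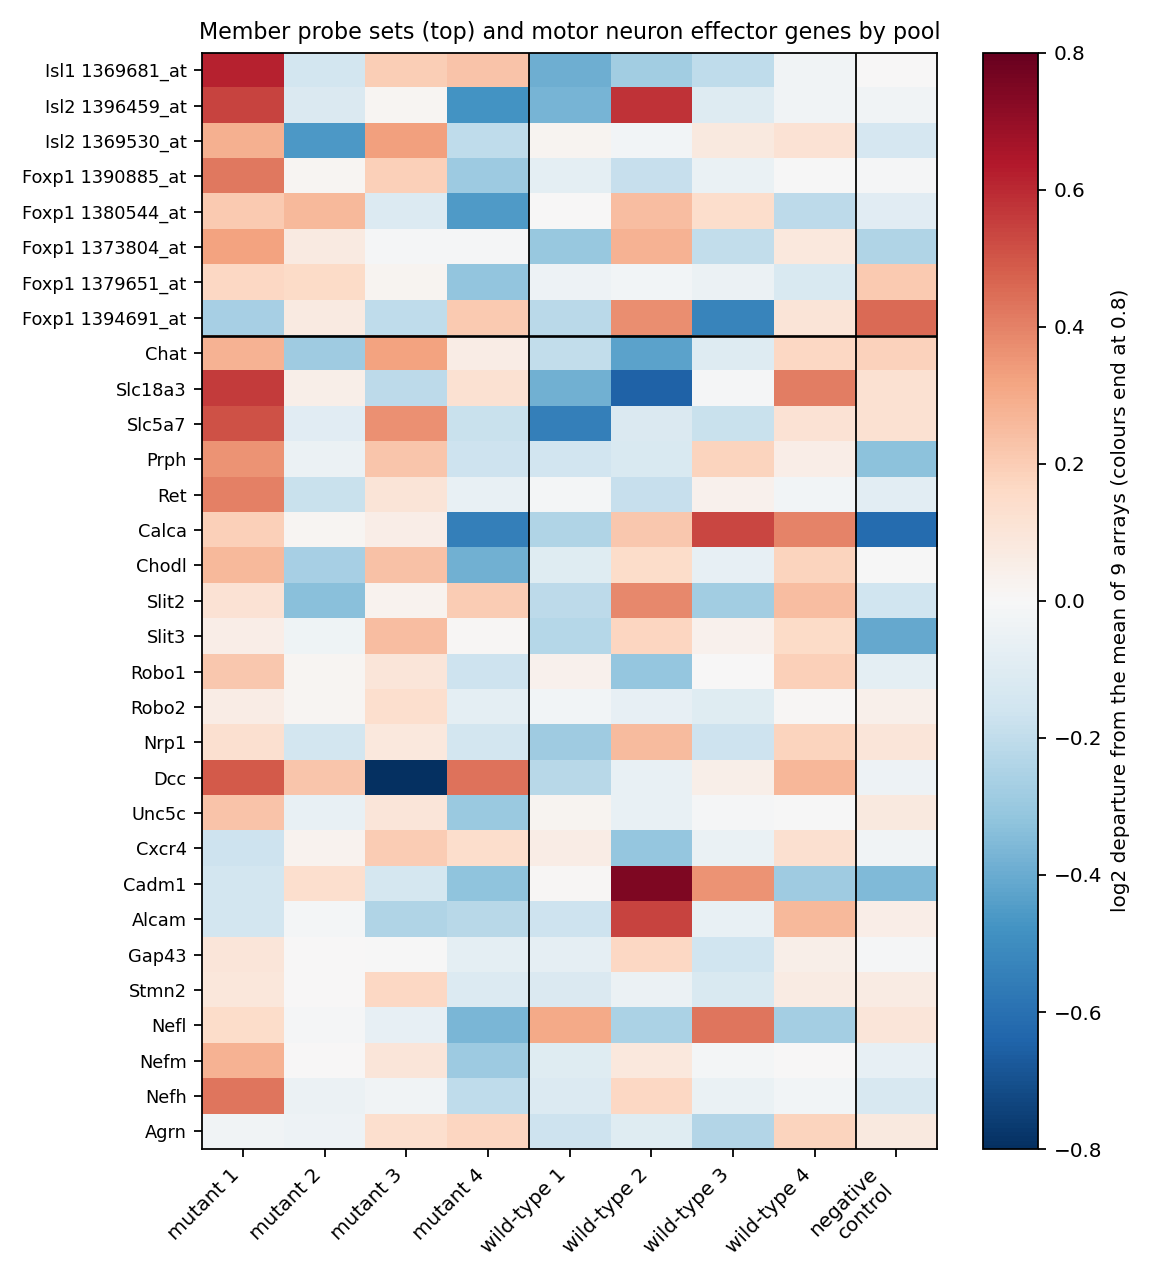
Departure of each array from the mean of 9 arrays (log2 scale) for the 8 tested member probe sets (upper rows) and the 23 tested motor neuron effector genes (lower rows), red above and blue below the mean. Among the members, mutant replicate 1 is above the mean for all but Foxp1 1394691_at, by 0.61 for Isl1 1369681_at, and mutant replicate 4 is below it for both Isl2 and 3 of the Foxp1 probe sets by 0.20 or more.

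Levels of the 3 measured genes were set against each other across the 8 transgenic pools, with the brightest probe set of each gene and p-values from exact two-sided permutation tests adjusted over 3 pairs. Isl1 and Foxp1 had Pearson's r of 0.63 (exact permutation p = 0.0910, adjusted 0.273) and Spearman's rho of 0.45 (exact permutation p = 0.267, adjusted 0.449). Isl2 and Foxp1 had r of 0.51 (exact permutation p = 0.190, adjusted 0.285) and rho of 0.43 (exact permutation p = 0.299, adjusted 0.449). Isl1 and Isl2 had r of 0.29 (exact permutation p = 0.495, adjusted 0.495) and rho of 0.10 (exact permutation p = 0.840, adjusted 0.840). None of the 3 pairs passed.

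Single pools decided these correlations. Leaving out mutant replicates 1 and 4, the arrays farthest from the median of Isl1, moved r to 0.88 for Isl1 and Foxp1 (exact permutation, adjusted p = 0.0458) and to 0.07 for Isl1 and Isl2. For Isl1 and Foxp1, rho was then 0.89 and did not pass (exact permutation, adjusted p = 0.0875). Leaving out mutant replicate 1 and wild-type replicate 2, the arrays farthest from the median of Isl2, moved r to 0.87 for Isl2 and Foxp1 (exact permutation, adjusted p = 0.0167). There rho was 0.83 and did not pass either (exact permutation, adjusted p = 0.0875). Without mutant replicate 1 alone, r was 0.13 for Isl1 and Foxp1, 0.13 for Isl2 and Foxp1, and -0.26 for Isl1 and Isl2. Without mutant replicate 4 alone, r was 0.96 and rho 0.93 for Isl1 and Foxp1 (exact permutation, adjusted p = 0.00893 and 0.0202). Without wild-type replicate 2 alone, r was 0.95 and rho 0.89 for Isl2 and Foxp1 (exact permutation, adjusted p = 0.00238 and 0.0369). Within the 6 tagged arrays r was 0.11 for Isl1 and Foxp1, 0.12 for Isl2 and Foxp1 and -0.64 for Isl1 and Isl2; the untagged transgenic arrays are too few for a value.

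**Figure D5:**
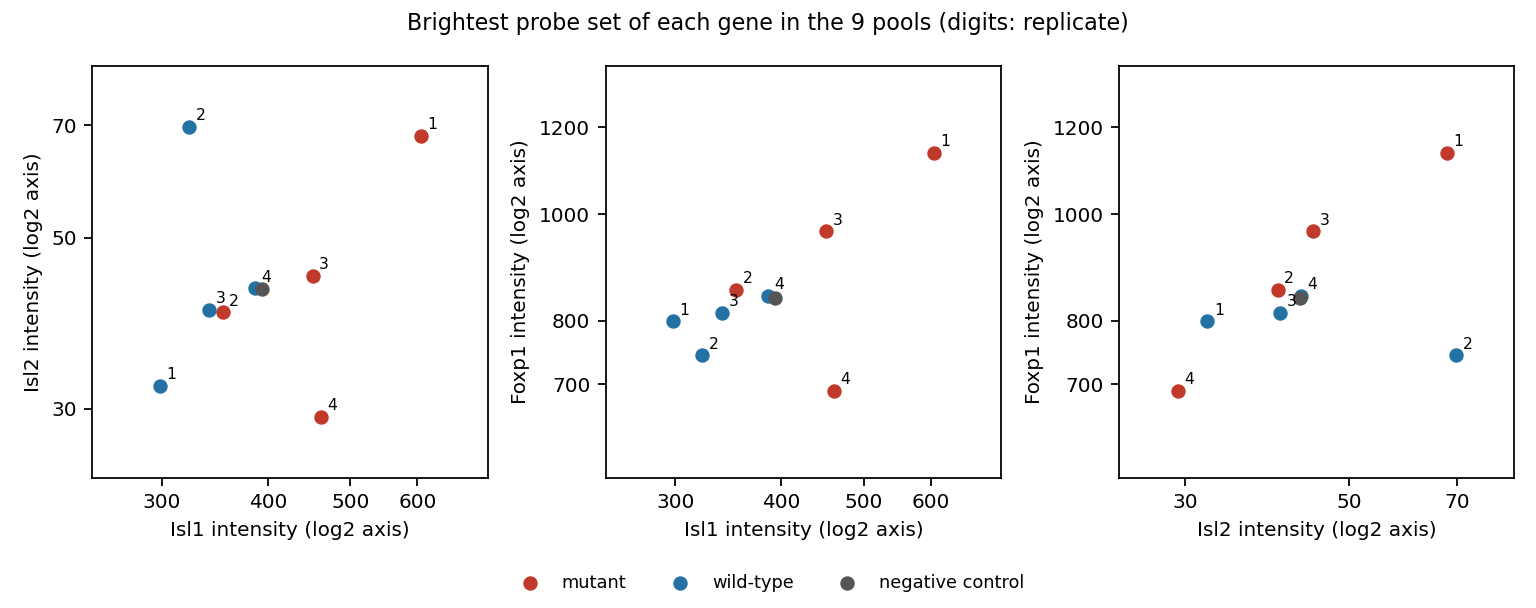
Intensities (log2 axes) of the brightest probe set of Isl1 (1369681_at), Isl2 (1396459_at) and Foxp1 (1390885_at) against each other, each point a pool with its replicate number, the negative control unnumbered. Mutant replicate 1 stands at the upper right in every panel, with 605, 67.8 and 1138, and mutant replicate 4 and wild-type replicate 2 lie apart from the others.

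For each gene, the 3 other genes whose probe sets followed its brightest probe set most closely over the 9 arrays were listed as a description; the arrays share their pools and scaling, and nothing follows about function. Isl1 was followed by Mrpl13 (r = 0.96), which codes for a mitochondrial ribosomal protein, by LOC100909675 (r = 0.92) and by Cd99l2 (r = 0.91), an adhesion protein. Isl2 was followed by Atp5mk (r = 0.95), a subunit of mitochondrial ATP synthase, by Qprt (r = 0.94), an enzyme of NAD synthesis, and by Stra6 (r = 0.94), a receptor for retinol-binding protein. Foxp1 was followed by Synpr (r = 0.98), a synaptic vesicle protein, by Nefl (r = 0.97), the light neurofilament subunit, and by Gabrb1 (r = 0.97), a GABA receptor subunit. The Nefl probe set that followed Foxp1 is not the brightest for Nefl. It had intensities of 3024, 2367, 2742 and 2068 in mutant pools and 2354, 2235, 2302 and 2491 in wild-type pools. The negative control had 2303. Mutant replicate 1 was highest and mutant replicate 4 lowest, as for Foxp1. The probe set was chosen for its correlation with Foxp1, so this shared order is no separate observation. On the brightest Nefl probe set, wild-type replicate 3 was highest, at 0.43 above the mean of the 9 arrays on the log2 scale. Mutant replicate 1 was at 0.14 there, and mutant replicate 4 was again lowest, at -0.36.

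The other genes of the motor neuron pathway were followed in lists chosen for their roles. Of 15 progenitor and differentiation factors, 9 were tested, and 0 passed after adjustment in limma. Of these, 5 lay above 0 and 4 below, with a median log2 difference of 0.01, where 53.7% of all tested probe sets lay above 0. Sox11, a factor of newborn neurons, was at 289 ± 48.0 in mutant pools and 418 ± 121 in wild-type pools, and Neurod1, a neuronal differentiation factor, at 292 ± 31.5 in mutant pools and 367 ± 61.6 in wild-type pools (SD, n = 4 each). Their unadjusted limma p-values were 0.0158 and 0.0228, and 0 others of the list were under 0.05. Of all tested probe sets, 2.18% were lower at that level. Without wild-type replicate 2, and with the tagged arrays alone, 0 of the 9 were under 0.05, and without mutant replicate 1 there was 1. Nkx6-1, a patterning factor of ventral progenitors, and Nkx6-2, its paralogue, differed by -0.23 and 0.33 on the log2 scale. Olig2, the defining factor of motor neuron progenitors, was at or under 10.5 on every array, below the filter.

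Of 26 factors of motor columns and pools, 22 were tested and 0 passed after adjustment. Of these 22, 13 lay above 0 and 9 below with a median of 0.02, where 53.7% of all tested probe sets lay above 0. At an unadjusted limma p under 0.05, 3 were higher and 2 lower in mutant pools, where 2.75% and 2.18% of all tested probe sets were, and 2 of 22 showed no overlap between groups, against 2.95% of all tested probe sets. Runx1, which marks a subset of cervical motor neurons in mouse, was at 132, 103, 111 and 97.4 in mutant pools, 67.1, 69.4, 103 and 43.7 in wild-type pools, against 56.0 in the negative control. Wild-type replicate 3 lay inside the mutant range, and the other wild-type pools below it. Its log2 difference was 0.64 (unadjusted limma p of 0.00559), and 0.56 on its other probe set. Zeb2, a zinc finger repressor, was at 85.5 ± 8.27 in mutant pools and 115 ± 15.2 in wild-type pools (SD, n = 4 each), a log2 difference of -0.39 (unadjusted limma p of 0.00792), and -0.03, -0.40 and -0.15 on its other tested probe sets. Hoxa5, a Hox gene of the brachial cord, and Aldh1a2, the retinoic acid-forming enzyme of limb-level motor neurons, differed by 0.28 and 0.56 on the log2 scale, and Etv1, a factor of motor pools, by -0.26.

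The Foxp1 paralogues Foxp2 and Foxp4 and the lateral column factor Lhx1 were looked up after their values were known. Foxp2 was at 797, 1089, 986 and 1118 in mutant pools, 1088, 1125, 1117 and 1209 in wild-type pools, against 1151 in the negative control, a log2 difference of -0.20 (unadjusted limma p of 0.0727). Mutant replicate 1, the highest array for Foxp1, was the lowest for Foxp2. Foxp4 was near background on several arrays, with a log2 difference of -0.27 and a 95% interval of -1.09 to 0.54. Lhx1 averaged 595 ± 51.0 in mutant pools and 595 ± 60.2 in wild-type pools (SD, n = 4 each).

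The cofactors that bind LIM homeodomain factors such as Isl1 and Isl2 lay on both sides of 0. Of 10 listed, 9 were tested, and 0 passed after adjustment in limma. Of these 9, 5 lay above and 4 below 0 with a median of 0.01, where 53.7% of all tested probe sets lay above 0. Ldb1, the bridging protein of the Isl1 complex, averaged 330.3 ± 38.2 in mutant pools and 340.2 ± 36.7 in wild-type pools (SD, n = 4 each), a log2 difference of -0.04. Ssbp2, which stabilises Ldb proteins, differed by 0.30 (unadjusted limma p of 0.0382) on its brightest probe set and by -0.17 on the other. It was the 1 of 9 under an unadjusted p of 0.05, where 2.75% of all tested probe sets were higher at that level. Ldb2, the Ldb1 paralogue, differed by -0.30, Ssbp4 by 0.19 and Lmo4, a LIM-only protein that competes for Ldb1, by -0.08 on its brightest probe set. The 4 other tested Lmo4 probe sets gave 0.10, 0.16, 0.13 and -0.35.

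Genes that motor neurons use once born checked the tissue label. Chat, which makes acetylcholine, was at 175, 115, 180.4 and 149 in mutant pools, 123, 104, 132 and 161 in wild-type pools, with 163 in the negative control. Slc18a3, which loads acetylcholine into vesicles, was at 525, 364, 304 and 386 in mutant pools, 268, 223, 350.5 and 471 in wild-type pools, against 384 in the negative control. Both lay above the filter on every array, as did Slc5a7, the choline transporter, and Prph, the neurofilament-like protein of motor and sensory axons. Chat and Slc18a3 overlapped between the groups, with log2 differences of 0.23 and 0.29 (unadjusted limma p of 0.160 and 0.183).

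Of 26 such effector genes 23 were tested, 0 passed after adjustment, and 15 lay above 0 with a median of 0.04. Over all tested probe sets, 53.7% lay above 0 with a median of 0.01. Of the 23 genes, 1 was under an unadjusted limma p of 0.05, where 4.93% of all tested probe sets were. It was Alcam, an axon adhesion protein, with a log2 difference of -0.30 (unadjusted limma p of 0.0401). Slc5a7 differed by 0.33, Agrn, the organiser of the neuromuscular synapse, by 0.14, and Cadm1, a synaptic adhesion protein, by -0.32 on its brightest probe set and 0.25 on another. Mutant replicate 1 was the highest array for 10 of these 23 genes, against 9.65% of all tested probe sets. Without it 11 of 23 lay above 0 with a median of -0.02, and with the tagged arrays alone 9 of 23 did with a median of -0.05. Without wild-type replicate 2, the highest array for Alcam, 15 of 23 did with a median of 0.07. In these settings 53.3% to 54.4% of all tested probe sets lay above 0. At an unadjusted limma p under 0.05, there were 0 genes without either array, each left out alone, and 2 lower with the tagged arrays. The share of all tested probe sets under that p in these settings is not given here.

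Markers of neighbouring cell types were read beside the members, and their part in the Isl1 values was not tested. Of 16 ventral interneuron factors 7 were tested, and all 7 of these had log2 differences below 0 with a median of -0.24. Over all tested probe sets, 53.7% lay above 0, and 2.18% were lower at an unadjusted limma p under 0.05. Of the 7 factors 0 passed after adjustment in limma. Gata3 and Gata2, factors of V2b interneurons, differed by -0.42 and -0.25, Bhlhe22, a factor of several interneuron classes, by -0.36, and Nkx2-2, a factor of the V3 domain, by -0.24, with Gata3 and Bhlhe22 under an unadjusted p of 0.05 (0.0234 and 0.0417 in limma). The other tested Gata3 probe set gave 0.21. The summed intensity of the list was 992 to 1376 in mutant pools, 1207 to 1769 in wild-type pools, with 1267 in the negative control. Sums of this kind add probe sets of unlike brightness, so the brightest weigh most and no sum measures a cell type. Without mutant replicate 1 the median was -0.09, with 1 of 7 above 0. Without wild-type replicate 2, the array with the highest actin ratio, it was -0.14, also with 1 of 7 above 0. In either case 0 of 7 were under an unadjusted limma p of 0.05. With the tagged arrays alone the median was -0.11, with 0 of 7 above 0 and 2 lower at that level.

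Sensory ganglion neurons, the other main source of Isl1, were followed by 12 genes, of which 6 were tested and 0 passed after adjustment in limma. Of the 6, 2 lay above and 4 below 0 with a median of -0.09, where 53.7% of all tested probe sets lay above 0. With the tagged arrays alone, 4 of 6 lay above 0 with a median of 0.07. Without mutant replicate 1, and without wild-type replicate 2, 3 of 6 did, with medians of -0.03 and -0.05. The summed intensity of the list was 3659 to 5258 in mutant pools, 3490 to 3999 in wild-type pools, against 3686 in the negative control. Sncg, a synuclein of sensory and motor neurons, was read by the brightest probe set and so weighed most in that sum. It had 4433, 3204, 3426 and 2843 in mutant pools, 2678, 2927, 2656 and 2614 in wild-type pools, with 2968 in the negative control. Its log2 difference was 0.34 (unadjusted limma p of 0.00815), and mutant replicate 1 was again highest. Sncg was the 1 of 6 under an unadjusted p of 0.05, where 2.75% of all tested probe sets were higher at that level. Avil, a defining gene of these neurons, was at 9.02 to 18.6 in mutant pools, 13.3 to 18.1 in wild-type pools, against 10.6 in the negative control, below the filter. Pou4f1, made in sensory neurons and dorsal interneurons, was at 137, 204, 193 and 140.4 in mutant pools, 97.9, 211, 128 and 166 in wild-type pools, with 172 in the negative control.

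Dorsal interneuron factors gave 6 tested of 18, with 3 above and 3 below 0 and a median of 0.01, where 53.7% of all tested probe sets lay above 0. Without mutant replicate 1, without wild-type replicate 2, and with the tagged arrays alone, 4 of 6 lay above 0. The summed intensity of the list was 764 to 1081 in mutant pools, 898 to 1069 in wild-type pools, against 1039 in the negative control. Among these factors, Tlx3, which marks dorsal excitatory neurons and the class that also makes Isl1, was at or under 3.24 on every array. Of 8 floor plate and notochord genes 3 were tested, with 0 above 0 and a median of -0.03. Of these, 2 lay above 0 without wild-type replicate 2, and 1 did without mutant replicate 1 and with the tagged arrays alone. The sum of the list was 402 to 431 in mutant pools, 417 to 516 in wild-type pools, with 417 in the negative control. Shh was at or under 2.51 on every array. Of 19 genes of muscle, cartilage, blood and vessel 3 were tested, with 1 above 0 and a median of -0.01. All 3 lay above 0 without mutant replicate 1 and without wild-type replicate 2, each left out alone, and 1 did with the tagged arrays. The sum of the list was 127 to 154 in mutant pools, 109 to 153 in wild-type pools, against 150.0 in the negative control. Myod1, of muscle, and Hbb, of red blood cells, were at or under 1.68 and 4.27. Of 9 genes of brain regions 6 had a probe set and 0 were tested, with a sum of 25.4 to 37.5 in mutant pools, 24.5 to 47.0 in wild-type pools, with 46.6 in the negative control. None of these lists held a gene that passed after adjustment.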

How the data were processed

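RNA of 9 pools was measured on Affymetrix arrays, 1 array per pool. The deposited table holds 1 linear intensity per probe set; the authors' software and its version are not given in the sources used here. The deposited values show that each array had been brought to one level: their mean after trimming 2% at each end was 150.05 on each array to 2 decimals. No further scaling was added. Arrays carry no read depth, and their number limits the precision.

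Control probe sets of the manufacturer, 57 in all, were not tested. Of the remaining 31042, the annotation gave 20826 one symbol, 436 several and 9780 none. Intensities were taken to log2 with a pseudocount (8.25, the overall 25th percentile), and probe sets with a mean above the 40th percentile were fitted with limma 3.58.1 in R 4.3.3 (eBayes with trend), with Benjamini-Hochberg adjustment over all 18625 and a cutoff of 0.05. Mutant and wild-type pools were compared on their 8 arrays, and the single negative control in a fit of all 9, where it is assumed to vary like the others. The negative control is shared by all comparisons against it. Fits were tested on simulated data.

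The members, gene lists and tests were chosen with earlier results of these data known. Named were all member probe sets, up to 4 genes per list with the smallest limma p, markers of the labelled tissue and of other cell types, and the 3 genes per member most correlated with it. One probe set per gene, the brightest, stood for it in the lists. The labels call the pools biological replicates and do not pair them. Same-numbered mutant and wild-type arrays had correlations of their departures from the group means between -0.07 and 0.20. Those with different numbers had -0.23 to 0.21. These values do not settle whether the numbers mark pairs, so pairing was left out of the main fit and entered as an alternative.

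The alternatives changed the scaling (median centring, quantile normalization), the pseudocount (2.06, 33.0), the filter (none, 60th percentile), the eBayes setting (robust, no trend) and the weights of arrays. Others put the le2 tag, the log2 actin ratio or the replicate number into the model, used the tagged or the untagged arrays alone or all 9, or left out 1 array at a time. The counts of gene lists without single arrays and the other Isl2 probe set in the correlations were added after seeing the data.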

Additional observations from a re-analysis of the deposited data

Results flagged for a closer look

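Of 22 sets of 4 values checked for a sample far from the others, 1 stood out: the beta-actin 3'/5' ratio of wild-type replicate 2 was 19.2, and its gap to the next wild-type pool took 0.908 of the group's range, above the critical value of 0.829 for 4 samples. Chance gives such a flag in about 1 of 20 sets. None of the tested member probe sets had such a pool in either group. Wild-type replicate 2 was the highest array for Isl2 1396459_at, with 69.6, and its part in the member values was not tested beyond leaving it out, where the Isl2 difference was 0.16 and the Isl1 difference 0.43.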

How the results depend on the processing

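No member passed the adjusted threshold between mutant and wild-type pools, or against the negative control, under any tested alternative. The Isl1 difference kept its sign throughout, moved to 1.00 between the untagged arrays, and lay between 0.31 and 0.57 when single arrays were left out. The replicate block left it at 0.45 (limma adjusted p = 0.645) and changed no member's call. Of the arrays, 2 of 4 mutant and 3 of 4 wild-type ones correlated best with their own number in the other group. This does not settle whether the numbers mark pairs.

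Differences near 0 changed sign. Between mutant and wild-type pools, Isl2 1369530_at gave 0.00053 and Isl2 1396459_at 0.18 with array weights. With the actin ratio in the model, Isl2 1396459_at gave 0.28 and Foxp1 1380544_at 0.0794. Foxp1 1373804_at gave -0.0353 with the tagged arrays alone, and Foxp1 1394691_at -0.0067 after quantile normalization. Between the untagged arrays Isl2 1396459_at gave 0.91, Isl2 1369530_at 0.26 and Foxp1 1380544_at 0.20, all turned in sign, as was Foxp1 1394691_at at -0.0492; Foxp1 1373804_at gave 0.63 and Foxp1 1390885_at 0.51, with their sign kept. Leaving out single arrays gave -0.17 to 0.0902 for Isl2 1369530_at, -0.21 to 0.16 for Isl2 1396459_at, -0.16 to 0.0723 for Foxp1 1380544_at and -0.13 to 0.17 for Foxp1 1394691_at. Against the negative control, Isl1 gave 0.0284 with median centring, 0.00069 with the larger pseudocount, 0.0094 with array weights, 0.11 with the tag in the model or the untagged arrays alone, and 0.0621 with the actin ratio in it. With the actin ratio Foxp1 1380544_at gave -0.0084 and Isl2 1396459_at -0.19 there. Single arrays left out gave -0.0662 to 0.0606 for Isl1, -0.0581 to 0.11 for Isl2 1396459_at and -0.0435 to 0.0754 for Foxp1 1390885_at. The causes were not tested.

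The correlations moved as well. Leaving out single arrays gave r of 0.13 to 0.96 for Isl1 and Foxp1, 0.13 to 0.95 for Isl2 and Foxp1 and -0.26 to 0.66 for Isl1 and Isl2. Without the 2 arrays farthest from the median r was 0.88 for Isl1 and Foxp1 and 0.87 for Isl2 and Foxp1, and within the tagged arrays it was -0.64 for Isl1 and Isl2. The limits are the 4 pools per group, the single negative control, and the dim readings of Isl2 and the dimmer Foxp1 probe sets. Of the tested members, Foxp1 1394691_at lay nearest the filter, with a mean of 26.1 over the 9 arrays.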
